A study of Mus musculus with 6 samples.

Results

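The expression of 10 genes that carry signals from Fc receptors, and from other receptors that rely on an immunoreceptor tyrosine-based activation motif (ITAM), was followed in sorted blood-forming cells of the mouse embryonic aorta. They are the adaptors *Fcer1g* and *Tyrobp*, the kinases *Lyn*, *Syk* and *Btk*, the scaffolds *Lat* and *Lcp2*, the effectors *Plcg2* and *Vav1*, and the inhibitory phosphatase *Inpp5d*. The genes were chosen by symbol from the 24062 genes in the count tables. No rule on a measured value was used, but earlier results of these data were known when they were chosen. Of these genes, 10 of 10 were among the 12688 that passed the filter on low counts. The study asked how the amount of the transcription factor Gata2 relates to the step at which aortic endothelial cells become hematopoietic cells. Cells were taken at embryonic day (E) 10.5 from the aorta-gonad-mesonephros region (AGM) of *Gata2Venus* embryos of strain C57BL/6JOlaHsd. In this allele an IRES and the Venus fluorescent protein are placed behind the *Gata2* coding sequence, so that Venus brightness follows *Gata2* transcription, and the embryos used for RNA were heterozygous (*G2V/+*). Both groups carried the allele, were untreated and were sorted as CD31+ckit+ hematopoietic progenitor and stem cells. They differed in Venus brightness, which was medium in CD31+ckit+Vmed cells (Vmed, intermediate in the labels) and high in CD31+ckit+Vhigh cells (Vhigh), with 3 libraries per fraction, numbered 1 to 3 in each. The labels do not say whether libraries came from separate litters or how many embryos were pooled, and p-values therefore measure the spread between these libraries only.

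The ITAM is a short cytoplasmic stretch with a pair of tyrosines, each followed at a fixed distance by leucine or isoleucine. When a receptor is clustered, Src family kinases such as Lyn phosphorylate these tyrosines, Syk docks on them through its SH2 domains, and Syk then phosphorylates the scaffolds Lat and SLP-76 (encoded by *Lcp2*). The scaffolds gather Vav1, Btk and phospholipase C gamma, which drive calcium release and cytoskeletal change, whereas SHIP1 (encoded by *Inpp5d*) removes a phosphate from the lipid that recruits Btk. In mast cells the pathway is known for degranulation through the high-affinity IgE receptor, and in macrophages, neutrophils and platelets for phagocytosis and adhesion.

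The motif itself is shown for the 2 adaptors because it is what defines them as the entry point of the pathway. The coding bases were read from GENCODE transcripts on GRCm38 and joined across introns. Capitals mark the codons of the tyrosines and of the leucine that follows each of them, and 9 bases are shown on either side. The *Fcer1g* stretch covers codons 65 to 79 of 86 within chr1:171229880-171230081 on the minus strand, and the *Tyrobp* stretch covers codons 92 to 106 of 114 within chr7:30415661-30417391 on the plus strand.
Fcer1g: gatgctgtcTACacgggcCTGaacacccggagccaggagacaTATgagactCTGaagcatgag
Tyrobp: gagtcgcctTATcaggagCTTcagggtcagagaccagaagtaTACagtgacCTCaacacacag
Both hold 7 codons between the units. A search for a tyrosine, any 2 residues and leucine or isoleucine, repeated after 6 to 8 codons, matched 2 of the 10 genes (these adaptors) and 631 of 21584 protein-coding genes (2.92%). A match is a description of the letters and not of a working motif.

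The libraries held between 8296831 and 12035206 counts on genes, so that the floor of 3 counts lay between 0.249 and 0.362 CPM (gene counts scaled by the gene total of each library). Intervals and floors of this kind cover counting error only. Genes with a count numbered 14021, 15812 and 12709 in Vmed replicates 1, 2 and 3 and 10427, 18460 and 13434 in Vhigh. Vhigh replicate 1 thus held the fewest, and the part of this in its values at or near 0 was not tested. No library repeated another, since counts of any 2 differed by a chi-square of at least 93.7 per degree of freedom. The ribosomal transcript *Rn45s* took between 0.887% and 10.5% of the counts, with the highest shares in replicate 3 of both fractions. The sorting marker *Kit* had 64.1, 208 and 59.1 CPM in Vmed replicates 1, 2 and 3 and 255, 490 and 521 CPM in Vhigh, without overlap, whereas *Gata2* overlapped between the fractions (29.4 to 68.3 and 39.2 to 142 CPM). Markers of hematopoietic stem and progenitor cells summed to 547 to 1242 CPM in Vmed and 1161 to 3115 CPM in Vhigh, and 12 of 12 had a higher fitted level in Vhigh. Endothelial markers summed to 1192 to 5047 and 970 to 3672 CPM, erythroid markers to 188 to 602 and 109 to 234 CPM, and lymphoid markers to 4.35 to 36.04 and 0.657 to 90.1 CPM. Mesenchymal markers, which the gate should leave out, summed to 1895 to 5255 CPM in Vmed and 284 to 643 CPM in Vhigh. The part of this difference in the values below was not tested, and in bulk RNA fewer cells of a type and less RNA per cell cannot be told apart.

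The 10 genes together took between 0.0574% and 0.143% of the counts in a library. *Syk*, *Btk*, *Lyn* and *Inpp5d* were higher in Vhigh in 3 of 3 pairs of libraries with the same number, and *Plcg2* and *Vav1* in 2 of 3, whereas the adaptors *Fcer1g* and *Tyrobp* and the scaffold *Lat* had lower fitted levels in Vhigh. None of these differences passed the threshold. In the quasi-likelihood test of edgeR, adjusted by Benjamini-Hochberg, 0 of 10 genes had an adjusted p under 0.05, and the share over all 12688 genes tested was 0%, with a smallest adjusted p of 0.66 over all genes and of 0.9998 for each of the 10. At an unadjusted p under 0.05 there were 2 of 10 genes (*Plcg2* and *Inpp5d*), against 2.04% of all genes tested (259 genes), and without Vmed replicate 1, Vhigh replicate 2 or Vhigh replicate 3 there were 0. With the replicate number as a block there were 3 (*Syk*, *Btk* and *Inpp5d*), against 528 of all 12688 genes tested. Again 0 of 10 genes had an adjusted p under 0.05. The other tools also placed 0 of 10 genes under that adjusted p, while edgeR's likelihood ratio test called 21 genes and the DESeq2 Wald test 51 genes in all.

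The fitted log2 fold change of Vhigh over Vmed was above 0 for 7 of the 10 genes, where 48.9% of all genes tested were above 0. Its median over the 10 was 0.80, and that of all genes tested was -0.02. With single libraries left out, the median ranged from 0.64 (without Vhigh replicate 3) to 1.04 (without Vmed replicate 1), with 6 to 9 genes above 0. By replicate number, 4 of 10 genes were higher in Vhigh in 3 of 3 pairs (15.2% of all genes tested) and 1 of 10, *Tyrobp*, was lower in 3 of 3 (15.4%). The values of the 2 fractions did not overlap for 1 of 10 genes with Vhigh above, *Inpp5d* (4.15% of all genes tested), and for 0 of 10 with Vhigh below (4.71%). An exact permutation of the 6 libraries, two-sided, was added gene by gene, and with 3 libraries per fraction its p is 0.1 or more.

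**Figure D1:**
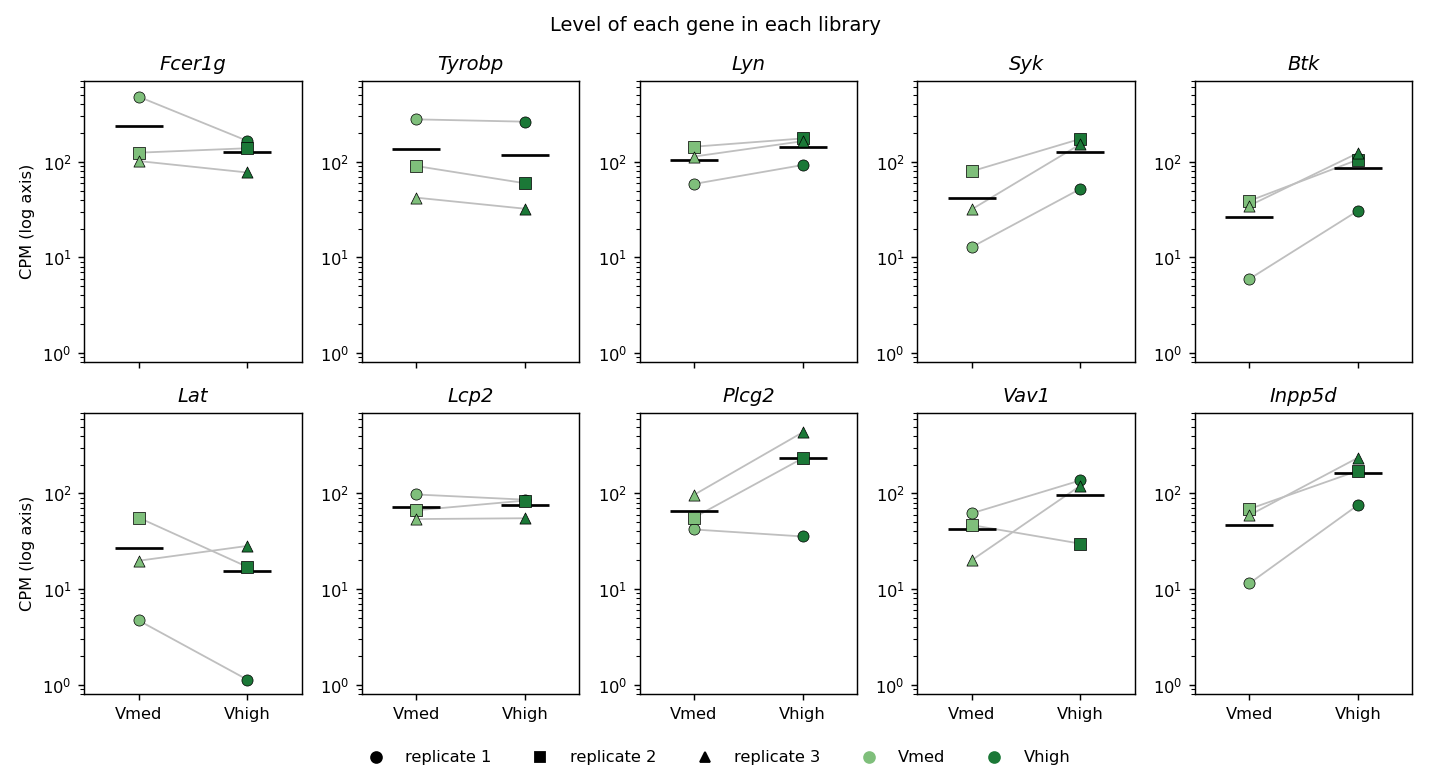
Level of each of the 10 genes in each library, in CPM on a log axis, with Vmed on the left and Vhigh on the right of each panel. Symbols mark the replicate number, grey lines join same-numbered libraries and black bars are group means of 3 libraries. The lines of *Lyn*, *Syk*, *Btk* and *Inpp5d* climb in 3 of 3 pairs, and only the symbols of *Inpp5d* do not overlap between the fractions.

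*Fcer1g* (chr1:171229572-171234365, minus strand) encodes the Fc receptor gamma chain, the shared ITAM subunit of the IgE receptor and the activating IgG receptors. It had 480, 125 and 102 CPM in Vmed replicates 1, 2 and 3 and 166, 139 and 77.4 CPM in Vhigh. Vmed replicate 1 stood far above the other 5 libraries, which overlapped between the fractions. The mean was 235 ± 212 CPM (SD, n = 3) in Vmed and 127 ± 45.2 CPM (SD, n = 3) in Vhigh, with a fitted log2 change of -0.93 (standard error 0.68, exact permutation p = 0.7). Without Vmed replicate 1 the log2 fold change was 0.18, so its direction rested on that library.

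*Tyrobp* (chr7:30413760-30417585, plus strand) encodes DAP12, the ITAM adaptor of TREM receptors and of many other myeloid receptors. Its level was 278, 90.4 and 42.2 CPM in Vmed replicates 1, 2 and 3 and 263, 59.7 and 32.3 CPM in Vhigh. Replicate 1 was high and replicate 3 low in both fractions, so that the libraries differed more by replicate number than by Venus level. The mean was 137 ± 125 CPM (SD, n = 3) in Vmed and 118 ± 126 CPM (SD, n = 3) in Vhigh, and the differences within pairs were -0.08, -0.60 and -0.38 on the log2 scale. The log2 fold change was -0.18 (standard error 0.92, exact permutation p = 0.7) and -0.39 (standard error 0.34) with the replicate block. It turned positive without Vmed replicate 1 (0.92), Vhigh replicate 2 (0.18) or Vhigh replicate 3 (0.28), and was -1.73 without Vhigh replicate 1.

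Per length of exon (RPKM, reads per kilobase and scaled to the library like CPM), the adaptors were the most abundant of the 10 genes, with means over the 6 libraries of 208 ± 171 RPKM (SD) for *Fcer1g* and 191 ± 169 RPKM (SD) for *Tyrobp*. They held the first and second rank in 5 of 6 libraries. The exception was Vhigh replicate 3, where *Plcg2* ranked first. The ratio of *Fcer1g* to *Tyrobp* RPKM was 1.32, 1.05 and 1.84 in Vmed replicates 1, 2 and 3 and 0.480, 1.77 and 1.83 in Vhigh, so that *Tyrobp* exceeded *Fcer1g* in Vhigh replicate 1 only. The next levels, *Plcg2* (34.9 ± 36.8 RPKM) and *Lyn* (30.6 ± 11.01 RPKM), lay within each other's spread. The remaining order was *Vav1* (18.8 RPKM), *Btk* (18.0 RPKM), *Lcp2* (16.6 RPKM), *Inpp5d* (13.7 RPKM), *Syk* (8.96 RPKM) and *Lat* (7.63 RPKM). No neighbours in this order differed by more than the larger of their SDs over the 6 libraries.

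The sum of the adaptors and the sum of the other 8 genes were highest in different libraries. The summed level of *Fcer1g* and *Tyrobp* was 758, 215 and 144 CPM in Vmed replicates 1, 2 and 3 and 429, 198 and 110 CPM in Vhigh. The other 8 genes summed to 295, 556 and 429 CPM in Vmed and 511, 992 and 1318 CPM in Vhigh. As a share of the counts on the 10 genes, the adaptors were lower in Vhigh in 3 of 3 pairs, at 72.0%, 27.9% and 25.1% in Vmed and 45.6%, 16.7% and 7.68% in Vhigh. The shares of the fractions overlapped.

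Markers of macrophages, in which both adaptors are abundant, were highest in Vmed replicate 1, as the adaptors were. The 15 macrophage markers summed to 2222, 1430 and 1150 CPM in Vmed replicates 1, 2 and 3 and to 635, 128 and 121 CPM in Vhigh, and 1 of the 14 tested had a positive log2 fold change. *Emr1*, which encodes F4/80, had 525, 287 and 288 counts in Vmed and 0, 0 and 3 counts in Vhigh. In Vhigh replicate 1, where *Tyrobp* was nearly as high as in Vmed replicate 1, *Emr1* was at 0 and the marker *C1qb* at 92.9 CPM, against 686 CPM in Vmed replicate 1. Other markers of the list were higher in Vhigh replicate 1 than in Vmed replicate 1, with *Lyve1* at 184 against 61.9 CPM, *Csf1r* at 54.4 against 32.1 CPM and *Ms4a7* at 17.2 against 15.3 CPM. Of the mast cell and basophil markers, *Mcpt4* and *Cma1* were at 0 in every library, whereas *Cpa3* had 11.1, 3.62 and 0 CPM in Vmed and 137, 23.8 and 11.1 CPM in Vhigh. *Hdc*, also on the list, overlapped between the fractions, at 47.9, 33.7 and 27.7 CPM in Vmed and 0.469, 27.8 and 28.3 CPM in Vhigh. The list summed to 111, 68.7 and 96.0 CPM in Vmed replicates 1, 2 and 3 and 177, 147 and 181 CPM in Vhigh. These sums include *Gata2*, the gene the sort reports on, at 50.3, 29.4 and 68.3 CPM in Vmed and 39.2, 82.5 and 142 CPM in Vhigh. Neutrophil markers summed to 366 to 544 CPM in Vmed and 805 to 1347 CPM in Vhigh, of which *Mpo* made up the larger part. Of the 6 tested, 5 had a positive log2 fold change. *Ctsg* of this list was at 0 in every library, and *S100a8* had 15.6, 0.723 and 19.2 CPM in Vmed and 8.63, 0 and 0 CPM in Vhigh. The part of these cells in the values of the 10 genes was not tested.

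**Figure D2:**
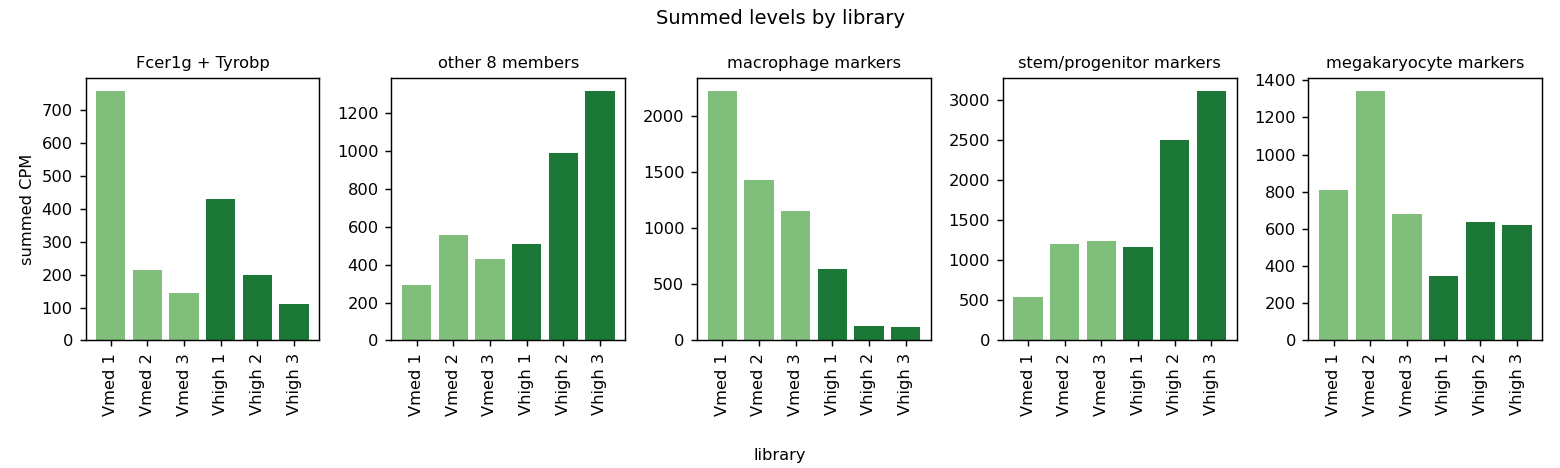
Summed level per library, in CPM on linear axes that start at 0 and differ between panels, of the adaptors, the other 8 genes and the macrophage, stem and progenitor, and megakaryocyte markers. Light bars are Vmed and dark bars Vhigh replicates 1 to 3. The adaptors are highest in Vmed replicate 1 (758 CPM), as are the macrophage markers (2222 CPM), while the other 8 genes are highest in Vhigh replicate 3 (1318 CPM), as are the stem and progenitor markers (3115 CPM).

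Among the receptors in front of the adaptors, the Fc receptors had 5 of 9 genes tested, of which 0 were called in either direction, with 2 above 0 and a median log2 fold change of -0.36. *Fcgr3*, an activating IgG receptor that needs the gamma chain, had 152, 107 and 108 CPM in Vmed and 160, 83.8 and 43.4 CPM in Vhigh. *Fcgrt*, the neonatal Fc receptor that recycles IgG and carries no ITAM, had 238, 74.8 and 62.6 CPM in Vmed and 18.5, 22.8 and 11.9 CPM in Vhigh. The *Fcgrt* values did not overlap, and the log2 fold change was -2.88 (standard error 0.74, exact permutation p = 0.1, unadjusted edgeR p = 0.0045, adjusted p = 0.9998). The alpha and beta chains of the IgE receptor were at 0 counts in 5 of 6 libraries, with 17 counts of *Fcer1a* and 68 counts of *Ms4a2* in Vhigh replicate 2.

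Of the receptors listed as partners of the ITAM adaptors, 7 of 18 were tested and 0 called, with 4 above 0. Their median log2 fold change was 0.80, and -1.45 with the replicate block, so the sign of this median depended on the model. *Trem2*, a DAP12-coupled receptor of macrophages, had 113, 15.1 and 5.76 CPM in Vmed and 31.6, 1.20 and 0 CPM in Vhigh, highest in replicate 1 and lowest in replicate 3 of each fraction, as was *Tyrobp*. *Treml1*, a platelet receptor whose own tail is inhibitory, had 42.4, 11.5 and 16.9 CPM in Vmed and 0.0938, 8.84 and 4.49 CPM in Vhigh. Among the other ITAM and hemITAM chains 4 of 10 were tested and 0 called. *Clec1b*, which encodes the platelet receptor CLEC-2, had 59.6, 145 and 108 CPM in Vmed and 31.3, 8.56 and 33.2 CPM in Vhigh, without overlap (log2 fold change -2.06, standard error 0.78). *Cd79b*, a chain of the B cell receptor, overlapped between the fractions (1.72 to 18.6 and 0.375 to 43.8 CPM).

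*Lyn* (chr4:3678115-3813122, plus strand) encodes the Src family kinase that starts ITAM phosphorylation in myeloid cells and also phosphorylates inhibitory receptors. Its level was 58.7, 144 and 114 CPM in Vmed replicates 1, 2 and 3 and 92.6, 176 and 164 CPM in Vhigh. Replicate 1 was the lowest in each fraction, and each Vhigh library lay above the Vmed library of its number by 0.65, 0.29 and 0.53 on the log2 scale. The mean was 105 ± 43.2 CPM (SD, n = 3) in Vmed and 144 ± 45.1 CPM (SD, n = 3) in Vhigh, and the log2 fold change was 0.41 (standard error 0.55, exact permutation p = 0.5). The difference was within the spread between replicates. The exons of *Lyn* overlap an antisense transcript (*Gm26857*) over 248 bp, and the strand setting of the counting is not given in the sources used here.

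*Syk* (chr13:52583173-52648792, plus strand) encodes the tandem SH2 kinase that binds the phosphorylated ITAM. It had 12.8, 79.7 and 31.8 CPM in Vmed replicates 1, 2 and 3 and 52.2, 174 and 153 CPM in Vhigh. The fractions overlapped through Vhigh replicate 1, which lay below Vmed replicate 2, while the 3 differences within pairs were 1.98, 1.12 and 2.25 on the log2 scale. The mean was 41.4 ± 34.5 CPM (SD, n = 3) in Vmed and 126 ± 65.1 CPM (SD, n = 3) in Vhigh. The log2 fold change was 1.57 (standard error 0.78, exact permutation p = 0.2, unadjusted edgeR p = 0.077) and 1.78 (standard error 0.49, unadjusted edgeR p = 0.015) with the replicate block. *Zap70*, the relative of *Syk* in T cells, was at 0 in 4 libraries, with 1 count in Vmed replicate 2 and 26 counts in Vhigh replicate 2, and was not tested.

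*Btk* (chrX:134542336-134583570, minus strand) encodes the Tec family kinase that activates phospholipase C gamma 2. Its level was 5.95, 39.1 and 34.8 CPM in Vmed replicates 1, 2 and 3 and 30.9, 106 and 124 CPM in Vhigh. As for *Syk*, replicate 1 was the lowest in each fraction, and Vhigh replicate 1 lay among the Vmed libraries. The mean was 26.6 ± 18.0 CPM (SD, n = 3) in Vmed and 86.7 ± 49.2 CPM (SD, n = 3) in Vhigh. The log2 fold change was 1.66 (standard error 0.90, exact permutation p = 0.3), and with the replicate block it was 1.84 (standard error 0.60, unadjusted edgeR p = 0.027). Its relative *Tec* had lower values in Vhigh in 3 of 3 pairs, at 9.72, 32.3 and 27.6 CPM in Vmed and 0.563, 9.67 and 16.5 CPM in Vhigh (log2 fold change -1.43, standard error 1.47).

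The other kinases of the Src, Syk and Tec families had 7 of 12 genes tested and 0 called, with 2 above 0 and a median log2 fold change of -0.57. *Yes1*, a broadly expressed Src family kinase, ranged from 13.8 to 151 CPM in Vmed and from 18.05 to 74.0 CPM in Vhigh. *Lck*, best known from T cells, ranged from 39.1 to 77.7 CPM and from 11.4 to 56.4 CPM.

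*Lat* (chr7:126363824-126369570, minus strand) encodes the membrane scaffold of T cells, mast cells and platelets. It had 4.69, 55.8 and 19.8 CPM in Vmed replicates 1, 2 and 3 and 1.13, 17.03 and 28.3 CPM in Vhigh. It was the most variable of the 10 genes, with a 49.6-fold range between the highest and the lowest library and 12 counts in Vhigh replicate 1. The mean was 26.8 ± 26.3 CPM (SD, n = 3) in Vmed and 15.5 ± 13.6 CPM (SD, n = 3) in Vhigh, and the log2 fold change was -0.82 (standard error 1.44, exact permutation p = 0.6). Without Vmed replicate 2 it was 0.24. Markers of megakaryocytes and platelets, cells that use *Lat*, summed to 808, 1342 and 682 CPM in Vmed and 345, 635 and 622 CPM in Vhigh, and their part in the *Lat* values was not tested. The annotated exons of *Lat* overlap the miRNA gene *Mir7058* over 75 bp on the same strand.

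*Lcp2* (chr11:34046920-34092295, plus strand) encodes SLP-76, the scaffold that holds phospholipase C gamma and Vav1 together. Its level was 97.5, 66.7 and 53.9 CPM in Vmed replicates 1, 2 and 3 and 86.0, 84.2 and 55.0 CPM in Vhigh. It was the most even of the 10 genes, with a 1.81-fold range over the 6 libraries. The mean was 72.7 ± 22.4 CPM (SD, n = 3) in Vmed and 75.1 ± 17.4 CPM (SD, n = 3) in Vhigh, and the log2 fold change was 0.01 (standard error 0.63, exact permutation p = 0.9), with a sign that changed with the normalization. Its exons overlap those of the antisense gene *4930469K13Rik* over 282 bp.

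The other adaptors had 15 of 18 genes tested and 0 called, with 8 above 0 and a median log2 fold change of 0.06. *Dok2*, an adaptor that restrains Ras signaling, had 47.3, 90.6 and 59.3 CPM in Vmed and 164, 300 and 154 CPM in Vhigh. The *Dok2* values did not overlap, and the log2 fold change was 1.60 (standard error 0.52, exact permutation p = 0.1, unadjusted edgeR p = 0.013, adjusted p = 0.9998). *Skap2*, a Src kinase-associated adaptor, was even, at 80.3 to 159 CPM in Vmed and 134 to 194 CPM in Vhigh. *Lat2*, the relative of *Lat* in B cells and myeloid cells, was low in both fractions, at 1.60 to 11.6 CPM in Vmed and 0 to 8.19 CPM in Vhigh.

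*Plcg2* (chr8:117498291-117635142, plus strand) encodes phospholipase C gamma 2, the enzyme that turns ITAM signals into calcium release in myeloid and B cells. It had 42.0, 55.9 and 96.6 CPM in Vmed replicates 1, 2 and 3 and 35.5, 234 and 436 CPM in Vhigh. Vhigh replicates 2 and 3 stood above the other 4 libraries, while Vhigh replicate 1 was the lowest of all 6. The mean was 64.8 ± 28.3 CPM (SD, n = 3) in Vmed and 235 ± 200 CPM (SD, n = 3) in Vhigh. The log2 fold change was 1.80 (standard error 0.78, exact permutation p = 0.4, unadjusted edgeR p = 0.047). It ranged from 0.95 without Vhigh replicate 3 to 2.30 without Vhigh replicate 1, and was 1.33 (standard error 0.52, adjusted p = 0.987 from edgeR) with the replicate block. Its more widely expressed relative *Plcg1* had 21.4, 51.9 and 268 CPM in Vmed and 69.0, 67.8 and 280 CPM in Vhigh, so that replicate 3 was the high library in both fractions.

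*Vav1* (chr17:57279100-57328031, plus strand) encodes the blood cell exchange factor that activates Rac. Its level was 61.9, 46.6 and 19.97 CPM in Vmed replicates 1, 2 and 3 and 137, 29.8 and 121 CPM in Vhigh. Vhigh replicates 1 and 3 were the highest libraries, whereas Vhigh replicate 2 lay between the Vmed values. The mean was 42.8 ± 21.2 CPM (SD, n = 3) in Vmed and 95.8 ± 57.7 CPM (SD, n = 3) in Vhigh, and the log2 fold change was 1.19 (standard error 0.81, exact permutation p = 0.3).

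The list of other effectors had 21 of 23 genes tested and 0 called, with 18 above 0 and a median log2 fold change of 0.98. With the replicate block the median was 0.66 with 15 above 0. *Rac2*, the blood cell GTPase on which Vav1 acts, had 294, 250 and 73.4 CPM in Vmed and 624, 511 and 277 CPM in Vhigh, higher in 3 of 3 pairs (log2 fold change 1.17, standard error 0.58). *Vav3* was also higher in Vhigh in 3 of 3 pairs, at 12.8, 40.3 and 22.5 CPM in Vmed and 60.4, 85.5 and 36.1 CPM in Vhigh (log2 fold change 1.23, standard error 0.86). *Rasgrp3*, an exchange factor for Ras, was lower in Vhigh in 3 of 3 pairs, at 83.6, 313 and 199.8 CPM in Vmed and 14.5, 116 and 178 CPM in Vhigh (log2 fold change -0.999, standard error 0.80). The values of these 3 genes overlapped between the fractions.

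*Inpp5d* (chr1:87620312-87720507, plus strand) encodes SHIP1, the lipid phosphatase that limits ITAM signaling. It had 11.4, 68.7 and 59.1 CPM in Vmed replicates 1, 2 and 3 and 75.8, 173 and 237 CPM in Vhigh. Each Vhigh library lay above each Vmed library, though Vhigh replicate 1 was only just above Vmed replicate 2. The mean was 46.4 ± 30.7 CPM (SD, n = 3) in Vmed and 162 ± 81.0 CPM (SD, n = 3) in Vhigh, and the differences within pairs were 2.68, 1.32 and 1.99 on the log2 scale. The log2 fold change was 1.77 (standard error 0.74, exact permutation p = 0.1; quasi-likelihood test of edgeR, p = 0.042 before and 0.9998 after adjustment). With the replicate block it was 1.98 (standard error 0.46, adjusted p = 0.89 from edgeR). When single libraries were left out it stayed between 1.32 and 2.13.

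The inhibitory receptors and phosphatases had 19 of 21 genes tested and 0 called, with 9 above 0 and a median log2 fold change of -0.05 (-0.52 with the replicate block). *Ptpn6*, which encodes the tyrosine phosphatase SHP-1, was higher in Vhigh in 3 of 3 pairs, at 32.3, 143 and 95.1 CPM in Vmed and 49.5, 330 and 353 CPM in Vhigh (log2 fold change 1.38, standard error 0.75). *Inppl1*, which encodes the related phosphatase SHIP2, had 1.14, 5.06 and 106 CPM in Vmed and 1.13, 3.96 and 46.5 CPM in Vhigh, so that replicate 3 was high in both fractions. *Inpp5b*, another inositol phosphatase, ranged from 20.5 to 183 CPM in Vmed and from 0 to 216 CPM in Vhigh.

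The promoters of *Inpp5d* and *Vav1* share a string of letters and are shown for that reason. The sequence GAGGAAGT, a form of the site bound by ETS factors such as PU.1, was searched on both strands in the 250 bases before the gene start in the RefSeq promoter table (GRCm38.p6). It was present in 2 of the 8 genes with a promoter in the table and in 802 of 32851 promoters (2.44%). *Lyn* and *Tyrobp* were not in the table. Capitals mark the match, which lies on the plus strand in both, with its first base 20 bases before the start of *Inpp5d* (chr1:87620272-87620311 is shown) and 11 bases before that of *Vav1* (chr17:57279069-57279099 is shown).
Inpp5d: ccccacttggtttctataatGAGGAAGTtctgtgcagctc
Vav1: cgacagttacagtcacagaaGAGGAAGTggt
The libraries measure RNA and not binding, and the match is a description only.

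**Figure D3:**
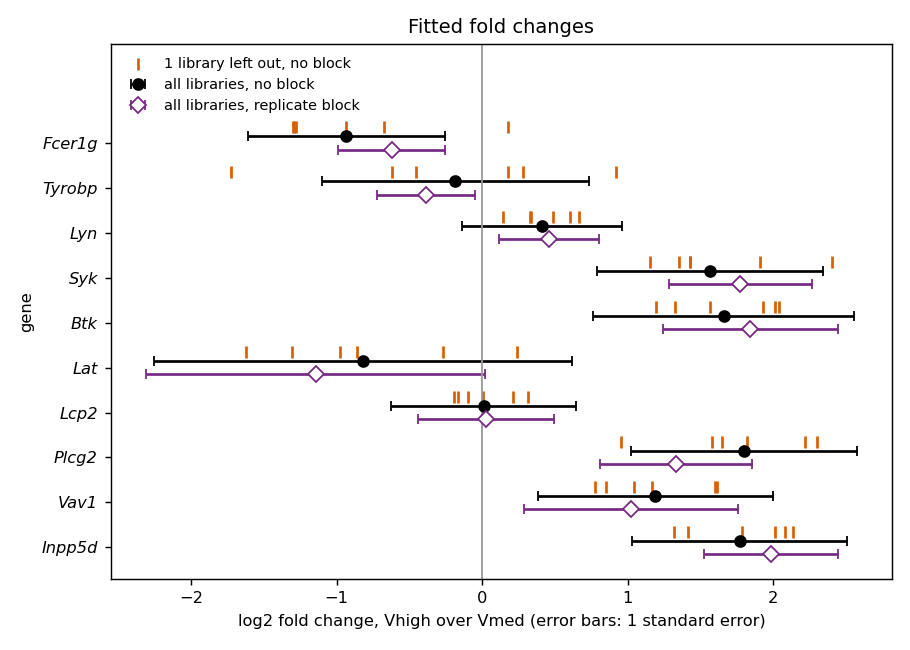
Fitted log2 fold change of Vhigh over Vmed for the 10 genes, with all libraries and no block (filled circles) and with the replicate number as a block (open diamonds). Bars are 1 standard error and short vertical marks are fits with 1 library left out. The marks of *Fcer1g*, *Tyrobp*, *Lat* and *Lcp2* fall on both sides of 0, and those of *Lyn*, *Syk*, *Btk*, *Plcg2*, *Vav1* and *Inpp5d* on the right side only.

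Across libraries the genes fell into patterns that followed the replicate number as well as the fraction. Vmed replicate 1 was the lowest library for 4 genes (*Lyn*, *Syk*, *Btk* and *Inpp5d*) and the highest for 3 (*Fcer1g*, *Tyrobp* and *Lcp2*). Vhigh replicate 3 was the highest for 3 (*Btk*, *Plcg2* and *Inpp5d*) and the lowest for 2 (*Fcer1g* and *Tyrobp*). On a log2 scale with 0.5 CPM added, *Inpp5d* lay 2.62 and *Btk* 2.61 below their own means over 6 libraries in Vmed replicate 1, where *Fcer1g* lay 1.69 above. *Lat* lay 3.00 below its mean in Vhigh replicate 1. *Syk*, *Btk* and *Inpp5d* shared the lowest library, Vmed replicate 1, and had their highest values in Vhigh replicates 2 and 3.

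**Figure D4:**
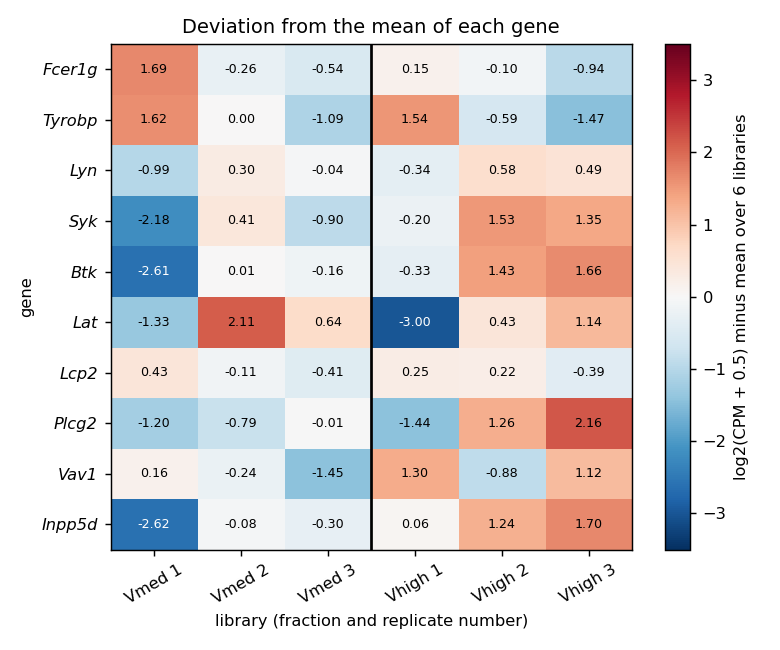
Deviation of log2(CPM + 0.5) from the mean over the 6 libraries for each gene (rows) and library (columns), with red above and blue below the mean and the value printed in each cell. *Btk*, *Syk* and *Inpp5d* are lowest in Vmed replicate 1 (-2.61, -2.18 and -2.62), where *Fcer1g* (1.69) and *Tyrobp* (1.62) are highest.

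To set each gene beside a blood cell transcript of the same library, it was also expressed relative to *Ptprc*, which encodes CD45, the common antigen of blood cells. *Ptprc* itself had 8.58, 58.2 and 51.3 CPM in Vmed replicates 1, 2 and 3 and 16.04, 91.2 and 99.3 CPM in Vhigh, low in replicate 1 of both fractions. *Ptprc* was also higher in Vhigh in 3 of 3 pairs, with a fitted log2 fold change of 0.75 (standard error 0.96). A gene with the same level in both libraries of a pair therefore lies lower in Vhigh relative to *Ptprc*, and the shares over all genes tested carry this too. The difference of log2(CPM + 0.5) between a gene and *Ptprc* was taken in each library. These ratios share the *Ptprc* value of a library and are not independent of each other.

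Relative to *Ptprc*, *Syk*, *Btk* and *Inpp5d* were higher in each Vhigh library than in each Vmed library, which makes 3 of 10 genes where 0.544% of all genes tested did so. *Btk* lay at -0.49, -0.57 and -0.55 in Vmed replicates 1, 2 and 3 and at 0.92, 0.21 and 0.32 in Vhigh. The 3 Vmed libraries, between which *Btk* itself varied widely, were thus nearly equal in the ratio. *Inpp5d* lay at 0.40, 0.24 and 0.20 in Vmed and at 2.21, 0.92 and 1.25 in Vhigh. *Syk* lay at 0.55, 0.45 and -0.68 in Vmed and at 1.67, 0.93 and 0.62 in Vhigh, with a narrow gap between Vhigh replicate 3 and Vmed replicate 1. The mean differences were 1.02 for *Btk*, 1.18 for *Inpp5d* and 0.97 for *Syk* on the log2 scale, each with an exact permutation p of 0.1, the smallest that 3 libraries against 3 can give. With each library left out they ranged from 0.57 to 1.45. Ratios that do not overlap give a positive difference whichever library is removed, so the sign was fixed in advance.

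*Lat* was the 1 gene of 10 that lay lower in each Vhigh library relative to *Ptprc*, where 13.6% of all genes tested did so. Its ratio was -0.81, -0.06 and -1.35 in Vmed and -3.35, -2.39 and -1.80 in Vhigh. The mean difference was -1.77 (exact permutation p = 0.1). With each library left out it ranged from -2.13 to -1.35, with a sign again fixed by the lack of overlap. The other 6 genes overlapped. *Fcer1g* and *Tyrobp* differed by -1.41 and -1.17 with an exact permutation p of 0.5 each, and turned positive without Vmed replicate 1 (0.15 and 0.42). *Lyn* (-0.33), *Lcp2* (-0.76), *Plcg2* (0.51) and *Vav1* (0.20) had exact permutation p-values of 0.5 to 0.8, and each changed sign with 1 library left out.

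**Figure D5:**
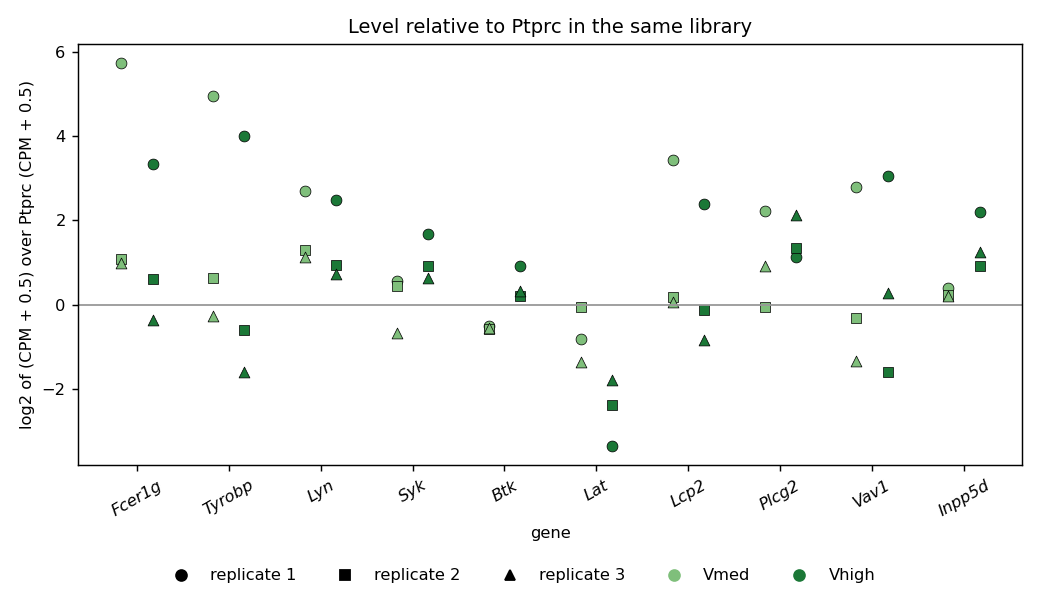
Log2 of each gene over *Ptprc* in the same library, with 0.5 CPM added to both. Light symbols are Vmed and dark symbols Vhigh, and shapes mark the replicate number. Dark symbols of *Syk*, *Btk* and *Inpp5d* lie above the light ones and those of *Lat* below, while replicate 1 of both fractions is far above the rest for *Fcer1g*, *Tyrobp* and *Lcp2*.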

How the data were processed

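RNA from CD31+ckit+Vmed and CD31+ckit+Vhigh cells was amplified with the SMARTer protocol and sequenced as single 50-bp reads. The authors deposited raw read counts per gene symbol, 1 table per library, without normalization. Reads were aligned to GRCm38/mm10 with TopHat and Bowtie 1.1.2 and counted with HTSeq, per the submitters' processing notes; the annotation and strand setting are not given in the sources used here. Summary lines for reads not assigned to a gene were left out of all totals.

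Genes were kept by edgeR's filterByExpr (12688 of 24062), normalized by TMM and tested with edgeR 4.0.16 in R 4.3.3 by its quasi-likelihood test. The model held 1 term, the fraction, and p-values were adjusted by Benjamini-Hochberg with a threshold of 0.05. The common biological coefficient of variation was 1.16. CPM used the total gene count of each library. RPKM used exon-union lengths of GENCODE on GRCm38 (22750 symbols matched directly, 916 through older symbols and 396 unmatched). Alternatives were other normalizations and filters, the likelihood ratio test, DESeq2 1.42.0, limma-voom (limma 3.58.1), a replicate block, removal of *Rn45s*, and each library left out. After subtraction of fraction means, same-numbered libraries correlated across genes with r of 0.21, 0.21 and 0.39, against -0.29 to -0.01 for different numbers. Every same-numbered pair exceeded 0.1, so the numbers in the labels were taken as pairs.

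The genes and the pathway and marker lists were chosen with earlier results of these data known. Named genes were the 10 genes in every library, up to 2 genes per role list with the highest mean CPM, any list gene past the threshold, the family relatives *Zap70*, *Tec*, *Lat2*, *Plcg1*, *Vav3*, *Inppl1* and *Ptpn6*, and *Ptprc*, *Gata2* and *Kit*. A further gene that the rule names is not reported here. The marker genes *Emr1*, *C1qb*, *Lyve1*, *Csf1r*, *Ms4a7*, *Mpo*, *Cpa3*, *Hdc*, *Mcpt4*, *Cma1*, *Ctsg* and *S100a8*, the IgE receptor chains and *Rn45s* were named after their values were seen.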

Additional observations from a re-analysis of the deposited data

How the results depend on the processing

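None of the 17 alternatives placed 1 of the 10 genes under an adjusted p of 0.05, and the smallest adjusted p was 0.205, for *Inpp5d* with the replicate block and the likelihood ratio test. The number of genes called among all tested was 37 without a filter (13 higher and 24 lower in Vhigh, 20033 tested), 21 with the likelihood ratio test, 51 with DESeq2 and 74 with the replicate block and the likelihood ratio test. With the replicate block and the quasi-likelihood test it was 0, and 528 genes had an unadjusted p below 0.05 against 259 without the block, and the block changed no call of the 10 genes. With single libraries left out the number ranged from 0 to 1, the 1 being *Dcn* without Vhigh replicate 1. The number of genes without overlap was 1 in the main setting, where 8.92% of all genes tested did not overlap in either direction. It was 2 with upper quartile normalization (*Btk* and *Inpp5d*), where this share was 8.77%. With single libraries left out it ranged from 1 to 5, while the share rose to between 15.6% and 18.5%. The 5 were seen without Vhigh replicate 1, where the share was 17.1%. Of 170 refitted log2 fold changes of the 10 genes, 160 kept their direction and 10 changed it. *Lcp2* was -0.0069 with upper quartile normalization and -0.0078 without *Rn45s*. With single libraries left out, *Fcer1g* ranged from -1.30 to 0.18, *Tyrobp* from -1.73 to 0.92, *Lat* from -1.62 to 0.24 and *Lcp2* from -0.19 to 0.32. Of 80 recomputed differences relative to *Ptprc*, 71 kept their direction. For *Syk*, *Btk*, *Inpp5d* and *Lat*, the lack of overlap fixed the direction in advance wherever a library was left out. With single libraries left out, *Fcer1g* ranged from -2.48 to 0.15, *Tyrobp* from -2.87 to 0.42, *Lyn* from -0.88 to 0.17, *Lcp2* from -1.71 to 0.34, *Plcg2* from -0.033 to 1.11 and *Vav1* from -1.03 to 1.41. The cause of these changes was not tested. A library left alone with 1 partner in its fraction is assumed to vary like the others. Each of the 10 genes had at least 52 counts in each library except *Lat*, with 12 counts in Vhigh replicate 1.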

Other observations

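Further tested genes on the pathway lists had values that did not overlap between the fractions, and some are named here after their values were seen. They are a selection and give no share to set against those of all genes tested (4.15% with Vhigh above and 4.71% with Vhigh below). Lower in Vhigh were the platelet collagen receptor *Gp6* (1.03, 8.80 and 12.2 CPM in Vmed replicates 1, 2 and 3 and 0, 0 and 0.0831 CPM in Vhigh) and the fungal receptor Dectin-1, encoded by *Clec7a* (27.6, 22.3 and 12.7 CPM, and 0, 0 and 3.41 CPM). The inhibitory myeloid receptor *Lilrb4* had 70.1, 31.5 and 14.4 CPM in Vmed and 0, 0.46 and 0 CPM in Vhigh. *Cd33*, an inhibitory sialic acid receptor, had 21.3, 8.80 and 7.10 CPM in Vmed and 0, 0.184 and 2.83 CPM in Vhigh, and the ubiquitin ligase *Cblb* ranged from 40.04 to 51.0 CPM and from 10.4 to 37.6 CPM. Higher in Vhigh were the calcium channel gene *Orai1* (0.114 to 10.1 CPM in Vmed and 17.03 to 44.2 CPM in Vhigh), the adaptor *Sh3bp2* (3.13 to 20.02 CPM and 20.9 to 35.6 CPM), and the phosphatase genes *Ptpn18* (12.9 to 28.1 CPM and 29.1 to 81.1 CPM) and *Ubash3b* (10.4 to 52.3 CPM and 54.7 to 71.7 CPM). None of these genes passed edgeR's quasi-likelihood test at an adjusted p under 0.05. Macrophage and megakaryocyte markers were also lower in Vhigh, and their part in these values was not tested.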
